A study of Mus musculus with 12 samples.

Results

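A set of 9 genes of bone morphogenetic protein (BMP) and transforming growth factor beta (TGF-beta) signalling and of the leptomeninges was followed across the hippocampus of conditional double-knockout mice (DKO) and WT mice. They are Bmp6, Bmp7, Tgfbr3, Smad6, Id3, Dab2, Thbs1, Igf2 and Slc13a4, 9 of 21878 genes in the tables, and all 9 were among the 12689 genes tested. They were chosen by name with earlier results of these data known, several because they were lower in DKO by day. The day difference between the genotypes is therefore given as a description with no test, and so are the differences between night and day, which use the same day libraries. The night difference between the genotypes rests on libraries that this choice did not name and is tested.

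The libraries form 4 groups of 3, Day DKO, Day WT, Night DKO and Night WT. Mice were killed at 9 in the morning or 9 in the evening by the series description. The labels name the tissue as brain, and the series description names the hippocampus. The sources used here do not give the Cre driver of the conditional knockout, the strain or the age of the mice. They do not say either whether libraries came from separate mice, so p-values measure the spread between these samples only, which may be technical.

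BMPs are secreted ligands that assemble pairs of receptor serine/threonine kinases, which phosphorylate Smad1, Smad5 and Smad9. These join Smad4 and enter the nucleus, where they switch on the Id genes and their own inhibitor Smad6. TGF-beta acts through a related receptor pair and Smad2 and Smad3, after release from a latent complex in the matrix. In the brain the leptomeninges, the fibroblast membranes that cover the tissue and follow its vessels inward, are a source of BMP ligands, Igf2 and matrix proteins, and the choroid plexus shares several of these genes.

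The unit is FPKM, in which a gene's fragments are divided by its transcript length and by the library's total, so that values can be compared between genes per length. A log2 difference is a difference of mean log2(FPKM + 1), DKO minus WT or night minus day, and understates the change of genes near 1 FPKM. A gene is called at an adjusted p under 0.05 (limma, Benjamini-Hochberg over all genes tested, 2-sided). Library sums ran from 151059 to 175692 FPKM, and the number of reads is unknown. Psen2, a target of the knockout, averaged 0.391 ± 0.123 FPKM in Day DKO against 2.00 ± 0.756 FPKM in Day WT, and 0.477 ± 0.122 FPKM in Night DKO against 3.38 ± 0.381 FPKM in Night WT (SD, n = 3 each). Markers of hippocampal neurons, with Neurod6 highest, were present in every library, at a summed 151 to 178 FPKM in Day DKO and 135 to 152 FPKM in Day WT, and 138 to 151 FPKM in Night DKO and 138 to 156 FPKM in Night WT. Night WT replicate 1 had Ddx3y, a gene of the Y chromosome, at 0.0225 FPKM against 8.47 and 8.39 FPKM in the other Night WT libraries, so the night comparison and the WT time comparison mix sexes.

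Levels differed widely among the 9 genes. Id3 was highest at a mean of 27.6 FPKM over the 12 libraries, followed by Igf2 at 14.6 FPKM and Slc13a4 at 6.92 FPKM. Bmp6 and Tgfbr3 lay at 3.28 and 3.22 FPKM and Bmp7 at 1.98 FPKM. Dab2, Thbs1 and Smad6 were close together at 1.26, 1.20 and 1.16 FPKM. The Day DKO mean was the lowest of the 4 group means for each of the 9 genes, and its libraries did not overlap with those of the next group.

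**Figure D1:**
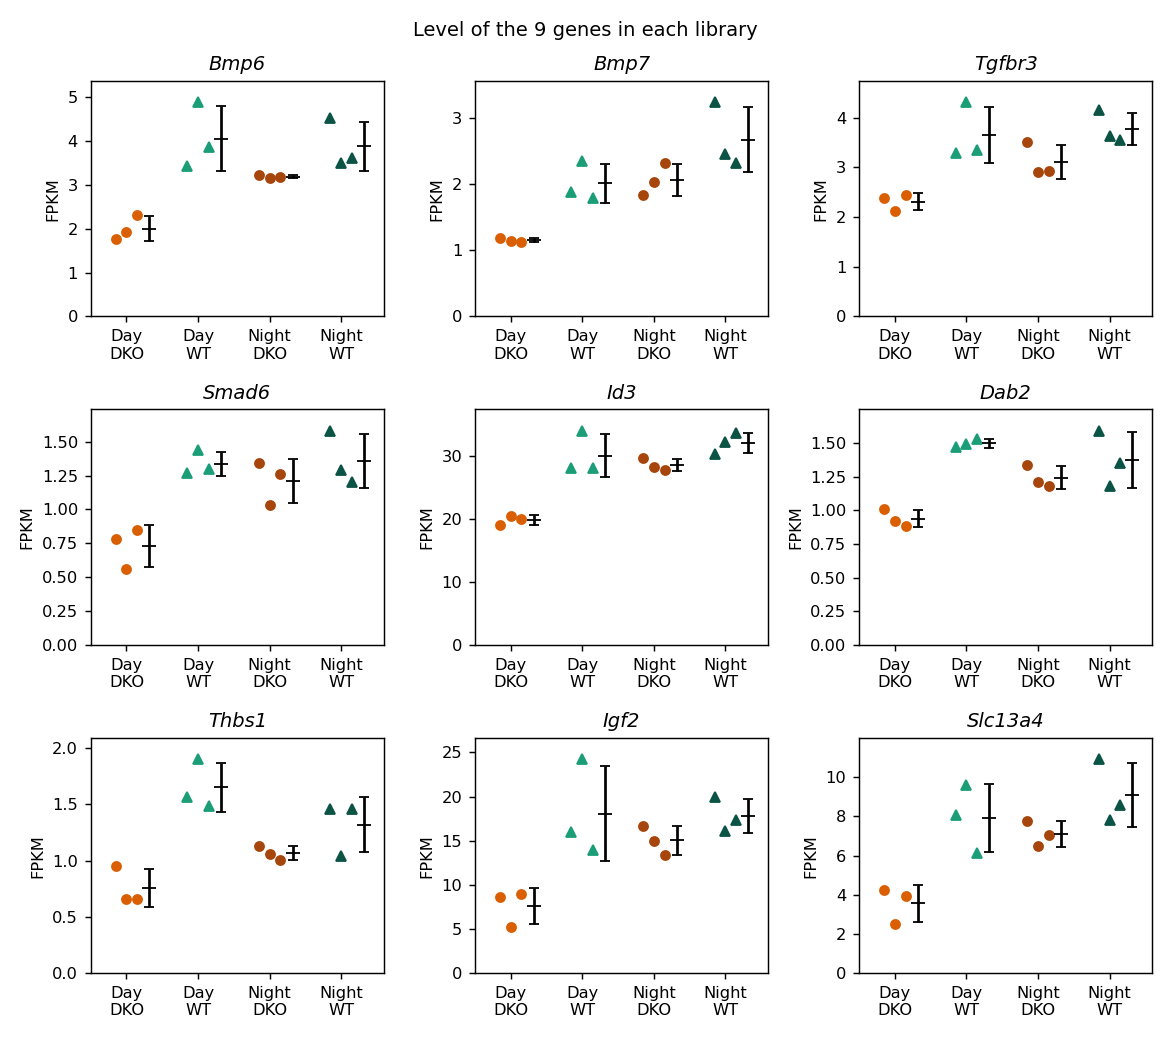
FPKM (vertical axis, from 0) of each of the 9 genes in each library, by group, with the mean and SD of 3 libraries to the right of the points. The Day DKO libraries lie below all other libraries for each gene, from 1.77 to 2.32 FPKM for Bmp6, and the Night DKO libraries lie near or just below those of WT.

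Among the ligands, Bmp6 (gene ID 12161, chromosome 13, 38345716 to 38500314 in GRCm38.p6) had 1.77, 1.92 and 2.32 FPKM in Day DKO, against 3.43, 4.88 and 3.86 FPKM in Day WT libraries. At night it had 3.22, 3.16 and 3.18 FPKM in DKO, against 4.52, 3.50 and 3.61 FPKM in WT libraries. The genotypes did not overlap at either time, and the DKO mean was 0.494 times that of WT by day and 0.822 times at night. The night log2 difference was -0.21 ± 0.11 (SE), which did not pass (limma, adjusted p = 0.581). The order of the group means was Day DKO, Night DKO, Night WT and Day WT, and only the last neighbours overlapped. Bmp6 overlaps a long noncoding RNA and Txndc5 in the annotation, and the use of strand in counting is not stated.

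Bmp7 (gene ID 12162, chromosome 2, 172868012 to 172940321), a ligand of the same subgroup, had 1.19, 1.14 and 1.13 FPKM in Day DKO, against 1.89, 2.35 and 1.80 FPKM in Day WT libraries. Night values were 1.84, 2.03 and 2.33 FPKM in DKO, against 3.24, 2.46 and 2.33 FPKM in WT libraries. The day libraries were separate, and those at night met at their edges. Bmp7 had the smallest night p of the 9 genes, with a log2 difference of -0.26 ± 0.10 (SE) that did not pass (limma, adjusted p = 0.454). It was also the member with the highest night to day ratio in WT, 1.33, with overlapping libraries.

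Tgfbr3 (gene ID 21814, chromosome 5, 107106567 to 107289629) encodes betaglycan, a co-receptor that presents TGF-beta ligands and binds BMPs. It had 2.38, 2.12 and 2.44 FPKM in Day DKO, against 3.30, 4.31 and 3.35 FPKM in Day WT libraries. In the night libraries it had 3.51, 2.90 and 2.93 FPKM in DKO, against 4.15, 3.64 and 3.55 FPKM in WT libraries. The genotypes did not overlap at either time, though at night the highest DKO and the lowest WT library were only a few hundredths of an FPKM apart. The night log2 difference was -0.22 ± 0.09 (SE) and did not pass (limma, adjusted p = 0.5).

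Smad6 (gene ID 17130, chromosome 9, 63953076 to 64022085) encodes the inhibitory Smad that blocks BMP receptors, and Id3 (gene ID 15903, chromosome 4, 136143822 to 136145392) a helix-loop-helix protein that holds back differentiation factors. Both are textbook targets of BMP signalling, so their start regions are shown, from RefSeq in GRCm38.p6, 5′ to 3′ on the strand of the gene. Capitals mark each GTCT and its complement AGAC, the short box bound by Smad proteins.
Id3, chr4:136143572-136143846, plus strand: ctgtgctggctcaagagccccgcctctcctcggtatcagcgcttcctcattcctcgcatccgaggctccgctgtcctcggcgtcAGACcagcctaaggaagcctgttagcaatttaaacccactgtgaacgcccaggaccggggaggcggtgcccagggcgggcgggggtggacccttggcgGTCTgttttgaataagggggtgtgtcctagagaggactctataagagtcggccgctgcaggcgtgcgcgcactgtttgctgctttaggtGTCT
Smad6, chr9:64022056-64022309, minus strand: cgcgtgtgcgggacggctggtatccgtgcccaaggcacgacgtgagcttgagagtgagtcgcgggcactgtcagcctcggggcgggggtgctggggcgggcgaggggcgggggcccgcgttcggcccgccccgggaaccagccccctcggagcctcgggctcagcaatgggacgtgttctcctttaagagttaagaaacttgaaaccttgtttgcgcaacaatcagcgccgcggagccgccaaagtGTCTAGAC
The windows searched run from 250 bases before to 50 after the start, 300 bases in all, and 6 of the 9 genes had 10 such windows between them. Bmp7, Tgfbr3 and Thbs1 had no window in the table. The palindrome GTCTAGAC, which joins both forms of the box, stood in the Smad6 window from 4 bases before the start that the window used. That start lies inside the limits of Smad6 given above, with the 5′ end at 64022085, and so does the palindrome. It stood in no other window of the 9 genes, and in 0.213% of all 32851 windows. A GTCT on either strand stood in all 10 windows of the members and in 88.0% of all windows. The GC-rich box GGCGCC, searched as its own complement, stood in 1 of the 10 windows, the second of Dab2, and in 11.9% of all windows. A match describes letters and is not a bound site.

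Smad6 had 0.783, 0.559 and 0.851 FPKM in Day DKO, against 1.27, 1.44 and 1.30 FPKM in Day WT libraries. Night values were 1.34, 1.03 and 1.26 FPKM in DKO, against 1.58, 1.29 and 1.20 FPKM in WT libraries. The day libraries were separate while those at night overlapped, with a night log2 difference of -0.09 ± 0.09 (SE; limma, adjusted p = 0.807). Day DKO replicate 2 was the lowest of all 12 libraries.

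Id3 had 19.0, 20.5 and 19.9 FPKM in Day DKO, against 28.0, 33.9 and 28.0 FPKM in Day WT libraries. The night libraries had 29.6, 28.2 and 27.7 FPKM in DKO, against 30.3, 32.2 and 33.5 FPKM in WT libraries. The Day DKO libraries lay close together and apart from all others, and Night DKO lay at the level of the lower Day WT libraries. The night log2 difference was -0.16 ± 0.07 (SE) and did not pass (limma, adjusted p = 0.526), although the libraries did not overlap.

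Dab2 (gene ID 13132, chromosome 15, 6299788 to 6440715) encodes a clathrin adaptor that takes part in receptor uptake and in TGF-beta signalling, and is also made by macrophages. It had 1.01, 0.922 and 0.883 FPKM in Day DKO, against 1.47, 1.49 and 1.53 FPKM in Day WT libraries. In the night libraries it had 1.34, 1.21 and 1.18 FPKM in DKO, against 1.59, 1.18 and 1.35 FPKM in WT libraries. The night libraries overlapped, and the log2 difference was the smallest of the 9 genes at -0.08 ± 0.07 (SE; limma, adjusted p = 0.795).

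Thbs1 (gene ID 21825, chromosome 2, 118111876 to 118127133) encodes thrombospondin-1, a matrix protein that can release TGF-beta from its latent form. It had 0.957, 0.663 and 0.659 FPKM in Day DKO, against 1.57, 1.90 and 1.49 FPKM in Day WT libraries. At night it had 1.13, 1.06 and 1.01 FPKM in DKO, against 1.46, 1.04 and 1.46 FPKM in WT libraries. Thbs1 was the only member whose WT libraries did not overlap between the times, with the night libraries lower, and at night Night WT replicate 2 lay within the DKO range. The night log2 difference between the genotypes was -0.16 ± 0.09 (SE; limma, adjusted p = 0.643).

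Igf2 (gene ID 16002, chromosome 7, 142650768 to 142666816), a growth factor of the leptomeninges and the choroid plexus, had 8.61, 5.29 and 9.02 FPKM in Day DKO, against 16.0, 24.2 and 14 FPKM in Day WT libraries. The night libraries had 16.7, 15 and 13.4 FPKM in DKO, against 19.9, 16.1 and 17.4 FPKM in WT libraries. Its day log2 difference of -1.14 was the largest of the 9 genes, and its libraries overlapped at night, when the difference was -0.23 ± 0.19 (SE; limma, adjusted p = 0.769). The gene shares its locus with Mir483 and the antisense Igf2os. Reads of Igf2os cannot be told apart here if strand was not used.

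Slc13a4 (gene ID 243755, chromosome 6, 35267953 to 35308126), a sodium-coupled sulfate transporter of the same tissues, had 4.26, 2.50 and 3.95 FPKM in Day DKO, against 8.08, 9.57 and 6.11 FPKM in Day WT libraries. At night it had 7.78, 6.48 and 7.07 FPKM in DKO, against 10.9, 7.80 and 8.57 FPKM in WT libraries. Day DKO replicate 2 was the lowest library for Slc13a4, as for Igf2. At night the genotypes came within a few hundredths of an FPKM of each other without overlap, and the log2 difference of -0.30 ± 0.17 (SE) was the largest of the 9 genes at that time but did not pass (limma, adjusted p = 0.618).

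At night the 9 genes were all lower in DKO by mean, none of them past the test. The median log2 difference was -0.21 over the 9 genes, with a range of -0.30 to -0.08, beside -0.01 over all 12689 genes tested. None of the 9 was called at night (limma), and 0.0236% of all genes were called, all lower. At an unadjusted p under 0.05 there were 3 of the 9 (Bmp7, Tgfbr3 and Id3) and 9.18% of all genes. Without Night DKO replicate 1 the calls over all genes turned to 33 higher and 5 lower, with none among the 9. The libraries did not overlap for 4 of the 9 genes, Bmp6, Tgfbr3, Id3 and Slc13a4, all lower in DKO, beside 9.48% of all genes lower and 5.73% higher without overlap. The 95% intervals of the night differences reached down to -0.66 for Slc13a4 and up to 0.18 for Igf2. Without Night WT replicate 1, the library of the other sex, the median was -0.15.

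By day the 9 genes had a median log2 difference of -0.57, from -1.14 for Igf2 to -0.37 for Dab2, beside 0.04 over all genes. All 9 were lower in DKO without overlap, beside 5.26% of all genes lower and 14.3% higher without overlap, a count that the choice of members fixes in part. Whether the genotype difference itself varied with the time was tested over the whole table, and no gene was called (limma, adjusted p of 0.396 or more, with 1099 at an unadjusted p under 0.05).

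**Figure D2:**
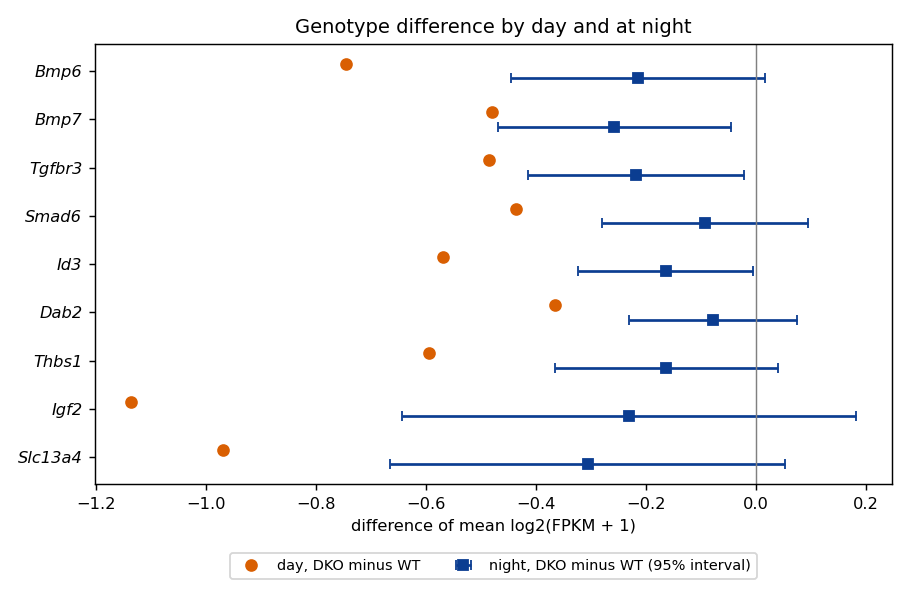
Difference of mean log2(FPKM + 1), DKO minus WT (horizontal axis), for each of the 9 genes by day (circles, no interval since these values were used in the choice) and at night (squares, with the 95% interval of the limma fit). All points lie below 0, with a median of -0.57 by day and -0.21 at night, and 6 of the 9 night intervals reach 0 or above.

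Between the times, the night mean in DKO was above the day mean for all 9 genes, from 1.33 times for Dab2 to 1.99 times for Slc13a4, with a median log2 difference of 0.48 beside 0.02 over all genes. The Night DKO and Day DKO libraries did not overlap for any of the 9, beside 12.9% of all genes higher and 6.44% lower without overlap. The Day DKO libraries are those in which the genes had been seen to be low. In WT the night to day ratio ran from 0.799 for Thbs1 to 1.33 for Bmp7, with a median log2 difference of 0.01 beside 0.07 over all genes. Of the 9 genes, 1 was lower at night in WT without overlap, Thbs1, beside 4.37% of all genes, and none was higher without overlap, beside 24.3%. These shares were counted without further scaling. The WT median of 0.07 over all genes was 0.006 after median-of-ratios scaling and 0.001 after quantile normalization.

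The other genes of these pathways lay on both sides of 0 by day and at night. Of 89 such genes in 8 lists, 79 were tested, and their median log2 difference was -0.02 by day and -0.03 at night. By day 2 rose in DKO and none fell, with 26 at an unadjusted p under 0.05 (limma; 17% of all genes), beside 1.18% of all genes called (0.796% higher and 0.386% lower). At night none was called, with 10 at an unadjusted p under 0.05 (9.18% of all genes). The lists were chosen with earlier results of these data known.

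Among the other BMP ligands, 7 were tested and none was called by day or at night. Bmp4, a ligand close to Bmp2, averaged 0.529 ± 0.0853 FPKM in Day DKO and 0.830 ± 0.212 FPKM in Day WT, and 0.782 ± 0.0923 FPKM in Night DKO and 1.09 ± 0.0429 FPKM in Night WT (SD, n = 3 each). Gdf11, an activin-like ligand, had a log2 difference of 0.08 by day and 0.26 at night. Bmp5 stood on the other side, at -0.17 by day and -0.20 at night. At night Bmp4 and Bmp5 were lower in DKO without overlap, beside 9.48% of all genes. Of the 7 ligands 4 lay below 0 at each time, beside 37.2% of all genes by day and 53.8% at night. None of 11 BMP and activin receptors was called in either comparison, and their medians were 0.01 by day and 0.03 at night. The receptor genes with the smallest p were Acvr1, a type I receptor kinase (0.21 by day), and Rgma, a co-receptor (0.19 at night).

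Of 11 BMP and activin inhibitors tested, 1 rose in DKO by day. Grem1, a secreted antagonist that binds BMP ligands, averaged 1.21 ± 0.114 FPKM in Day DKO and 0.613 ± 0.173 FPKM in Day WT (SD, n = 3 each), with a log2 difference of 0.46 (limma, adjusted p = 0.0493). This call lay at the threshold and was lost in 20 of 22 alternatives, with adjusted p up to 0.366. Nog, which encodes the antagonist noggin, averaged 2.53 ± 0.312 FPKM in Day DKO and 1.90 ± 0.389 FPKM in Day WT, and 1.75 ± 0.204 FPKM in Night DKO and 2.39 ± 0.214 FPKM in Night WT. Its differences of 0.29 by day and -0.30 at night had opposite signs, and neither was called.

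Of 12 Smads and their nuclear partners, 1 rose in DKO by day. Skil, a repressor that binds Smad proteins, averaged 13.9 ± 1.38 FPKM in Day DKO and 10.5 ± 0.260 FPKM in Day WT (SD, n = 3 each), with a log2 difference of 0.37 (limma, adjusted p = 0.0294). The call was lost in 8 of 22 alternatives, among them those without Day DKO replicates 2 or 3 and Day WT replicates 1 or 2. Smad7, the other inhibitory Smad, was not called, and its mean lay on the other side from that of Smad6, at 5.38 ± 0.314 FPKM in Day DKO and 4.25 ± 0.116 FPKM in Day WT, without overlap. At night Smad7 averaged 4.41 ± 0.422 FPKM in DKO and 4.54 ± 0.490 FPKM in WT.

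None of 7 other BMP target genes was called between the genotypes. Id1, which encodes a protein of the same kind as Id3, averaged 6.04 ± 0.275 FPKM in Day DKO and 7.95 ± 1.62 FPKM in Day WT, and 8.07 ± 1.62 FPKM in Night DKO and 10.8 ± 2.23 FPKM in Night WT (SD, n = 3 each). Id4 averaged 17.3 ± 1.42 FPKM in Day DKO and 20.5 ± 1.24 FPKM in Day WT, whereas Id2 averaged 35.8 ± 2.97 FPKM in Day DKO and 30.7 ± 2.48 FPKM in Day WT. The Id genes thus lay on different sides by day. Msx1, a homeobox gene, averaged 3.45 ± 0.598 FPKM in Day DKO and 6.90 ± 2.94 FPKM in Day WT.

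None of 13 genes for TGF-beta ligands, activators and receptors and none of 9 TGF-beta target genes was called between the genotypes. Of the 13, 11 lay below 0 by day, with a median log2 difference of -0.15, beside 37.2% of all genes. At night 8 lay below 0, with a median of -0.04, beside 53.8% of all genes. The ligand gene Tgfb1 had log2 differences of -0.02 by day and 0.28 at night, and Nrros, which anchors latent TGF-beta on microglia, 0.28 by day and 0.11 at night. Of the 9 target genes, 7 had an unadjusted p under 0.05 by day (limma), beside 17% of all genes. At night there were 2, beside 9.18% of all genes. The target genes had a median of -0.45 by day and -0.24 at night, with the collagen gene Col1a2 at -0.74 and -0.49. Pmepa1, a target that feeds back on Smads, stood on the other side at 0.28 by day. Col4a1, a basement membrane collagen, fell at night in DKO, averaging 3.95 ± 0.445 FPKM in Night DKO and 5.78 ± 0.480 FPKM in Day DKO (SD, n = 3 each). Its adjusted p was 0.0342 (limma), a call lost in 10 of 22 alternatives. In WT it was also lower at night without overlap, at 3.98 ± 0.241 FPKM against 5.30 ± 0.385 FPKM by day. That difference lay just past the threshold (limma, adjusted p = 0.0527).

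Of 9 other genes of the IGF axis, none was called between the genotypes. Igfbp2, a binding protein of IGFs that is also made by the choroid plexus and the leptomeninges, averaged 18.8 ± 5.48 FPKM in Day DKO and 36.8 ± 12.8 FPKM in Day WT, and 36.5 ± 3.74 FPKM in Night DKO and 43.1 ± 3.40 FPKM in Night WT (SD, n = 3 each). Igfbp7, another binding protein, had log2 differences of -0.57 by day and -0.18 at night. Igfbp3 rose at night in WT, with 4.57 ± 0.205 FPKM in Night WT and 3.31 ± 0.495 FPKM in Day WT (limma, adjusted p = 0.0380), a call lost in 13 of 22 alternatives, median-of-ratios scaling and quantile normalization among them. Col4a1 and Igfbp3 were the only pathway genes called between the times, 1 of 79 in each genotype, beside 0.299% of all genes in DKO (0.181% higher and 0.118% lower) and 1.67% in WT (1.51% higher and 0.158% lower). Both moved in the same direction in the other genotype, without overlap and without a call.

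**Figure D3:**
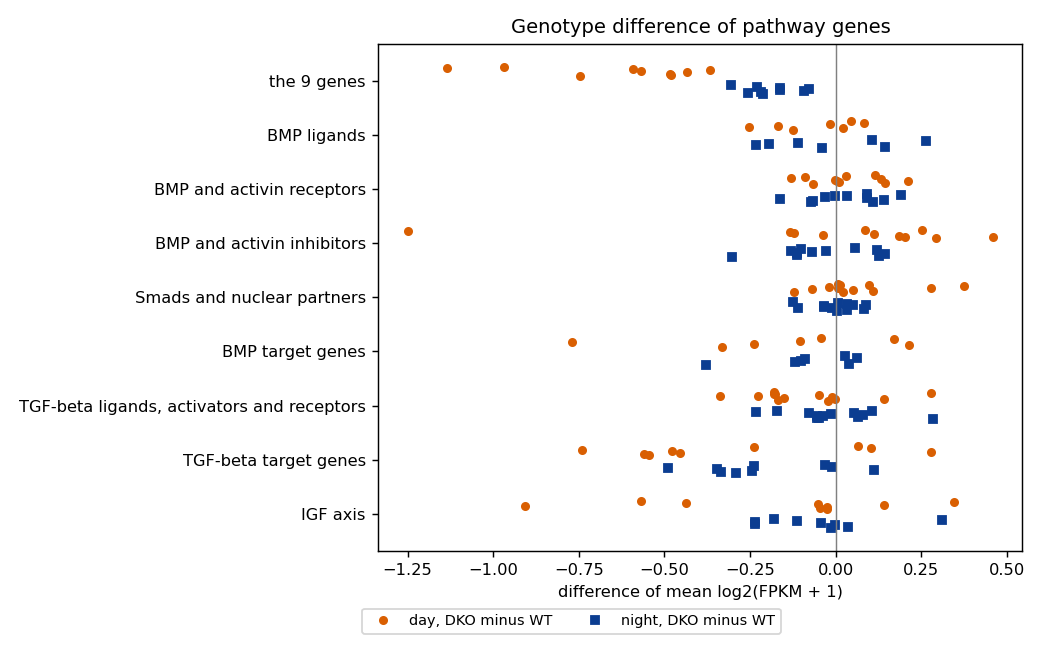
Difference of mean log2(FPKM + 1), DKO minus WT (horizontal axis), of each tested gene by day (circles) and at night (squares) for the 9 genes and 8 lists of other pathway genes (rows). The 9 genes all lie below 0, while most lists spread on both sides of 0; the inhibitor at the far left by day is Sostdc1, which is also a choroid plexus marker.

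Markers of several other cell types were mostly lower together with the 9 genes by day. None of the 9 genes stands in these lists, and Sostdc1 stands in both the inhibitor and the choroid plexus list. Fewer cells of a type and less RNA per cell cannot be told apart in these bulk libraries. The 17 choroid plexus markers, with Ttr highest and none at 0 in any library, summed to 84.0 to 1920 FPKM in Day DKO and 1210 to 2980 FPKM in Day WT, and to 2050 to 3240 FPKM in Night DKO and 1460 to 3360 FPKM in Night WT. All 17 were lower in DKO by day, with a median log2 difference of -1.02, and none was called (limma, 13 at an unadjusted p under 0.05, beside 17% of all genes). Their median at night was -0.02, and none was called (0 at an unadjusted p under 0.05). The 24 leptomeningeal fibroblast markers, with Ptgds highest and none at 0, summed to 342 to 543 FPKM in Day DKO and 484 to 865 FPKM in Day WT, and to 589 to 614 FPKM in Night DKO and 752 to 1040 FPKM in Night WT. Of the 23 tested, 22 lay below 0 by day (median -0.51, 16 at an unadjusted p under 0.05) and all 23 at night (median -0.36, 13 at an unadjusted p under 0.05). Over all genes 37.2% lay below 0 by day and 53.8% at night, with 17% and 9.18% at an unadjusted p under 0.05.

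Of the 23 leptomeningeal markers tested, 1 was called between the genotypes, by day, beside 1.18% of all genes. Mgp, a matrix protein that inhibits calcification and binds BMPs, fell in DKO by day, averaging 20.1 ± 1.71 FPKM in Day DKO and 35.8 ± 5.78 FPKM in Day WT (SD, n = 3 each; limma, adjusted p = 0.0302), a call lost in 7 of 22 alternatives, without Day DKO replicates 2 or 3 and Day WT replicates 2 or 3 among them. At night it averaged 39.6 ± 4.94 FPKM in DKO and 59.5 ± 13.9 FPKM in WT and was not called. Between the times it rose at night in DKO and in WT (limma), calls lost in 8 and 16 of 22 alternatives. The 8 vascular smooth muscle markers, with Myl9 highest and none at 0, summed to 8.43 to 10.9 FPKM in Day DKO and 15 to 31.2 FPKM in Day WT, and 13.1 to 15.3 FPKM in Night DKO and 19.5 to 26.9 FPKM in Night WT. By day 5 of the 8 fell (Acta2, Tagln, Myh11, Myl9 and Pln), beside 0.386% of all genes called lower. At night none was called (limma), with 6 at an unadjusted p under 0.05, beside 9.18% of all genes. All 5 day calls were lost with either marker term, without a filter, in a fit to the day groups alone, and without any of Day DKO replicates 2 and 3 and Day WT replicates 2 and 3. Tagln, Myh11 and Myl9 each lost theirs in 8 of 22 alternatives. The losses were 14 of 22 for Acta2 and 15 of 21 for Pln, fits without single night libraries among them. The adjusted p reached 0.596 for Acta2, 0.493 for Tagln, 0.539 for Myh11, 0.479 for Myl9 and 0.481 for Pln.

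Markers of 4 further cell types held no gene called between the genotypes (limma), with 7 of 10 endothelial, 1 of 8 pericyte, 0 of 5 border macrophage and 2 of 7 ependymal markers at an unadjusted p under 0.05 by day, beside 17% of all genes. At night these were 2, 3, 0 and 0, beside 9.18% of all genes. By day 8 of the 10 endothelial markers lay below 0, beside 37.2% of all genes. Ly6c1, with the smallest day p of the 10, lay above 0 at a log2 difference of 0.40. Its Day DKO libraries were higher than those of Day WT without overlap. The endothelial markers summed to 62.5 to 66.4 FPKM in Day DKO and 69.1 to 77.2 FPKM in Day WT, and to 60.2 to 72.4 FPKM in Night DKO and 65 to 78.3 FPKM in Night WT. The pericyte markers overlapped by day, with 40.8 to 47.4 FPKM in Day DKO and 42.3 to 53.5 FPKM in Day WT. At night they lay apart in the direction of the 9 genes, with 40.5 to 41.9 FPKM in Night DKO and 50 to 57.4 FPKM in Night WT. Vtn, the highest of them, averaged 21.9 ± 1.30 FPKM in Night DKO and 31.8 ± 3.01 FPKM in Night WT (SD, n = 3 each). Of the 8 pericyte markers 6 lay below 0 at night, beside 53.8% of all genes, with a median log2 difference of -0.10. Higd1b was higher in Night DKO than in Night WT without overlap. The ependymal markers summed to 13.9 to 15.5 FPKM in Day DKO and 16.6 to 26.3 FPKM in Day WT without overlap, and overlapped at night. The border macrophage markers, cells that also make Dab2, summed to 1.83 to 4.96 FPKM in Day DKO and 3.69 to 5.75 FPKM in Day WT and overlapped. Between the times in WT, the endothelial genes Cldn5, a tight junction protein, fell at night (limma, adjusted p = 0.0429) and Ly6c1 rose (adjusted p = 0.046), calls lost in 12 and 15 of 22 alternatives.

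Markers of hippocampal neurons stood mostly on the other side by day, with a median log2 difference of 0.13 beside 0.04 over all genes. Of the 10, 2 lay below 0, beside 37.2% of all genes, and among these 2 was Tdo2 at -0.40. Neurod2, a neuronal transcription factor, rose in DKO by day, averaging 30.1 ± 3.23 FPKM in Day DKO and 20.7 ± 0.283 FPKM in Day WT (SD, n = 3 each; limma, adjusted p = 0.0153), a call lost in 5 of 22 alternatives, without Day DKO replicates 2 or 3 and Day WT replicate 2 among them. At night the median was -0.01 and none was called, with 1 at an unadjusted p under 0.05. The part of this in the day values of the 9 genes was not tested.

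The level of the 9 genes was also set beside these markers in each library. It is given as the median over the 9 of the deviation of log2(FPKM + 1) from the mean of the 12 libraries, and that of a marker list as its mean log2(FPKM + 1). The 9 genes stood at -0.41, -0.44 and -0.39 in Day DKO replicates 1, 2 and 3, and between -0.01 and 0.35 in the other 9 libraries. Vascular smooth muscle markers separated the same libraries, with 0.93 to 1.05 in Day DKO and 1.15 or more in the other 9. So did leptomeningeal markers, with 1.75 to 2.08 in Day DKO and 2.14 or more elsewhere, and ependymal markers, with 1.51 to 1.58 in Day DKO and 1.65 or more elsewhere. Choroid plexus markers did not: they stood at 2.46, 1.15 and 3.11 in Day DKO replicates 1, 2 and 3, against 2.62 in Day WT replicate 3 and 2.82 in Night WT replicate 2. The part of these cell types in the difference of the 9 genes was not tested. With a choroid plexus term in the fit, the median log2 difference of the 9 genes was -0.49 by day and -0.21 at night. With a leptomeningeal term, added after the data were seen, it was -0.48 and -0.10. The leptomeningeal level separated Day DKO from the other libraries, so by day that fit cannot tell it apart from the group.

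**Figure D4:**
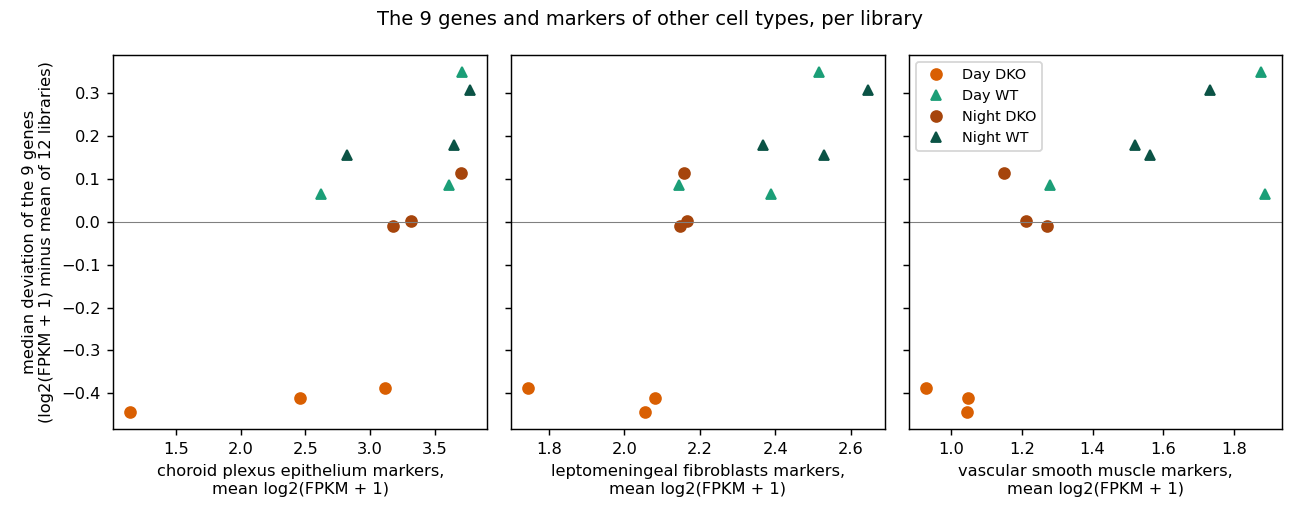
Median deviation of the 9 genes (vertical axis, log2) against the mean log2(FPKM + 1) of choroid plexus, leptomeningeal and vascular smooth muscle markers (horizontal axes), 1 point per library. The 3 Day DKO libraries lie at -0.44 to -0.39, below the other 9; they are also lowest in leptomeningeal (1.75 to 2.08) and smooth muscle markers (0.93 to 1.05), while their choroid plexus markers span 1.15 to 3.11 and overlap with the rest.

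The 9 genes also varied together across the 12 libraries, given here as a description, since group and cell type content are shared by all of them. Pearson's r of log2(FPKM + 1) ran from 0.665 for Bmp7 and Thbs1 to 0.973 for Igf2 and Slc13a4 over the 36 pairs. Of all other genes tested, those most like the mean standardised profile of the 9 were Ddr2 (r = 0.965), Flna (0.956), Bgn (0.951), Crip1 (0.946), Pcolce (0.944), Cnn2 (0.941), Pdgfd (0.935), Itga1 (0.929), Tapbp (0.928) and Lepr (0.926), each over 12 libraries. Ddr2, a collagen receptor, averaged 0.844 ± 0.123 FPKM in Day DKO and 1.56 ± 0.134 FPKM in Day WT, and 1.27 ± 0.107 FPKM in Night DKO and 1.64 ± 0.359 FPKM in Night WT (SD, n = 3 each).

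Single members had partly different nearest genes. Bmp6 was nearest to Tgfbr3 (r = 0.951), Slc12a7 (0.949) and Flna (0.941). Bmp7 was nearest to Pdgfd (0.968), Wls (0.966) and Mgp (0.963), and Id3 to Sytl2 (0.954), Crip1 (0.946) and Lgals1 (0.941). Dab2 and Thbs1 shared Itga1, a collagen-binding integrin, as the nearest gene (0.953 and 0.939). For Igf2 and Slc13a4 the nearest gene was the other of the pair.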

How the data were processed

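RNA of 12 libraries was measured by stranded total RNA sequencing after ribosomal RNA removal, per the labels' protocols. The authors deposited 1 table per library with 1 FPKM value per gene for 21878 genes. The unit was read from the values, since per the file headers only the sample is named. The submitters' processing notes name build GRCm38.p6; the sources used here do not give the aligner, the quantifier or the counting. Across 2238 low genes the smallest value above 0 was lower for longer transcripts (Spearman's rho -0.499), and ratios of low values put relative depth at about 0.904 to 1.06. Absolute depth is unknown and no counting interval is given. Date-like entries in place of 27 symbols were put right by gene ID.

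The 12689 genes that reached 0.5 FPKM in 3 or more libraries were fitted as log2(FPKM + 1) with limma 3.58.1 in R 4.3.3, with 1 mean per group over all 12 libraries and an intensity trend. The code was tested on simulated data. The 4 comparisons were DKO against WT at night and by day, and night against day in DKO and in WT. The members and lists were chosen with earlier results of these data known. Named genes were all 9 members, the called pathway genes and otherwise up to 2 per list with the smallest p at night or by day. The called or most abundant markers of other cell types were named where they bear on the members, as were the genes nearest in profile. Bmp5, Id2, Id4, Sostdc1 and Tdo2 were named after their values were seen. Alternatives were other pseudocounts (0.1, 0.5), filters, scalings, a replicate block, fits to only the groups compared, marker covariates and leaving out each library. Replicate numbers were not taken to pair samples. The values of 1 gene are not reported here.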

Additional observations from a re-analysis of the deposited data

How the results depend on the processing

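All 9 genes were lower in DKO at night and by day, and higher at night in DKO, in each of the 22 alternatives run, and no member was called at night in any (smallest adjusted p 0.341 to 0.928, limma). The night median of -0.21 ran from -0.27 to -0.10, the latter with the leptomeningeal covariate (-0.0989), and leaving out a library gave -0.25 to -0.15. The day median of -0.57 was -0.80 with a pseudocount of 0.1 and -0.61 to -0.48 without single libraries. The DKO time median of 0.48 was 0.65 with a pseudocount of 0.1 and 0.37 with the choroid plexus covariate, and 0.43 to 0.50 without single libraries. The WT time median of 0.01 was below 0 in 7 alternatives and -0.0573 to 0.14 without single libraries, 0.14 being without Day WT replicate 2.

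The background counts moved more. At night 3 genes were called, 5 with a replicate block, 15 when fitted to its own 2 groups and 0 with the leptomeningeal covariate (2 to 38 without single libraries, 38 being without Night DKO replicate 1, 33 of them higher, with 5 and 6 when Day DKO replicate 2 or Day WT replicate 1 was left out). By day 150 were called (101 higher, 49 lower), 26 without a filter, 96 after quantile normalization (51 and 45), 50 when fitted to its own 2 groups, 4 with the choroid plexus and 0 with the leptomeningeal covariate (13 to 205 without single libraries, with 23 and 19 without Day DKO replicates 2 and 3, 60 and 13 without Day WT replicates 1 and 2, and 85 without Night WT replicate 3; 66 higher and 65 lower with median-of-ratios scaling). In the DKO time comparison 38 were called, 21 without a filter, 65 (24 up, 41 down) under median-of-ratios scaling, 63 (24 up, 39 down) after quantile normalization, 15 and 17 with the choroid plexus and leptomeningeal covariates (19 to 55 without single libraries, with 22 and 21 without Day DKO replicates 2 and 3 and 19 without either of Night DKO replicates 2 and 3). In the WT time comparison 212 were called (192 higher, 20 lower), 64 without a filter, 57 (23 up, 34 down) under median-of-ratios scaling, 72 (26 up, 46 down) after quantile normalization, 23 when fitted to its own 2 groups and 1 with the leptomeningeal covariate (1 to 213 without single libraries, with 1 when Day WT replicate 1 or any 1 Night WT library was left out, 41 for Day WT replicate 2, 132 for Day DKO replicate 3 and 64 to 86 for a Night DKO library). The cause was not tested. Psen2 kept its call at both times in 21 of 22 alternatives and lost it with the leptomeningeal covariate, where its log2 difference was -1.49 at night against -1.57 in the reported fit (adjusted p = 0.0825) and -1.0005 by day against -1.08 (adjusted p = 0.341).

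Same-numbered libraries deviated together in 7 of 18 pairs at a correlation over 0.1 (-0.116 to 0.247), and 9 of 12 libraries correlated best with their own number, a hint from the data and not the design. With the replicate block the counts were 5 at night, 178 by day, 48 in DKO time and 144 in WT time, and no member was called at night. Depth is unknown, so how far it limits the genes near 1 FPKM cannot be stated.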
